A study of Mus musculus with 12 samples.

Results

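The genes described here are *Ybx1*, *Ybx3*, *Carhsp1*, *Cirbp* and *Rbm3*, which code for Y-box and other cold-shock RNA-binding proteins, and they are 5 of the 24561 genes in the count table. They were picked by symbol as a family because *Ybx3* was among the strongest differences between the labelled genotypes in these same samples, so its difference is given below as a description with no test. The other 4 were listed with it as members of the family. All 5 passed the filter on low counts.

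OT-II T cells, whose receptor recognizes an ovalbumin peptide, were transferred into CD45.1 *Sap*-/- mice, and the recipients were immunized with NP-OVA, a hapten coupled to ovalbumin, with LPS in alum. Follicular helper (Tfh) cells, gated as CXCR5hi PD-1hi, were sorted from draining lymph nodes on day 3 and made into SMART-Seq2 libraries of about 200 cells. The transferred cells carried *Cd4-cre*, a Cre transgene driven by a T cell gene, alone in the 3 mice labelled wild-type and together with *Bcl6* fl/+ in the 3 mice labelled BCL6-insufficient, in which 1 *Bcl6* allele can be deleted. Both groups were of C57BL/6 strain, each mouse gave 2 technical repeats, and the ages and the number of donor mice are not given in the sources used here. The p-values then measure the spread between recipients, which also holds the noise between libraries of about 200 cells. In a fit with a random term for mouse, the correlation between repeats of a mouse was 0.00569. A difference between donors and one between genotypes cannot be told apart.

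Library totals ranged from 3343375 to 8315722 counts with the BCL6-insufficient label and from 5240715 to 7266106 with the wild-type label. *Bcl6*, the targeted gene, was higher in the mice labelled BCL6-insufficient, with 150, 146 and 150 normalized CPM (counts scaled to a common library size with TMM factors) against 54.8, 75.6 and 56.9 in the mice labelled wild-type. Every direction below therefore rests on the labels as given. T cell markers were abundant in all 6 mice. Their summed level was 2900 to 3260 CPM with the BCL6-insufficient label and 3280 to 3590 with the wild-type label, which did not overlap. Of the 7, 3 were called lower and 0 higher. Tfh markers summed to 1690 to 1730 CPM and 1630 to 1750 CPM in the same order, so the groups overlapped. Of these 9, 66.7% were called, against 18.0% of all genes tested. *Bcl6*, *Icos* and *Maf* were higher (log2 fold changes of 1.25, 0.64 and 0.74). *Cxcr5* and *Pdcd1*, genes of the sorting gate, and *Tox2* were lower (-0.4, -0.42 and -0.8). The 8 myeloid markers in the table, of which *Cd14* had no count, summed to 15.6 to 39.3 CPM and 7.69 to 12 CPM in the same order. The 10 B cell markers summed to 510 to 702 CPM and 598 to 838 CPM, so the groups overlapped, and *Ighm* made up most of each sum. *Cd74* was highest in mouse 2 labelled BCL6-insufficient (52.3 CPM) and mouse 3 labelled wild-type (37.8 CPM), against 4.22 to 11.4 CPM in the other mice. Of 12719 genes tested, 18.0% were called at an adjusted p under 0.05 (9.17% were higher in the mice labelled BCL6-insufficient and 8.82% were lower), and in 34.4% the mice of the labels did not overlap.

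Cold-shock domain proteins bind single-stranded nucleic acid through a small fold also found in bacterial cold-shock proteins. YBX1 and YBX3 are Y-box proteins of this family, which coat messenger RNA in the cytoplasm, influence its stability and translation, and were first described as factors that bind the Y box, an inverted CCAAT box of promoters. CARHSP1 has a cold-shock domain as well and is known to stabilize *Tnf* mRNA. CIRBP and RBM3 bind RNA through a different fold, the RNA recognition motif, and are known for rising when cells are mildly cooled and for falling with heat.

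*Ybx3* and *Ybx1* are paralogs, and the stretches upstream of their starts are shown because *Ybx3* is the gene that chose the family and *Ybx1* its most abundant member, beside that of *Cirbp*, a gene known for its response to cold. The sequences are from RefSeq on GRCm38.p6, on the coding strand, and stop where an annotated exon of the gene begins. The promoter table held 4 of the 5 genes, all except *Rbm3*. Capitals mark the CCAAT box (CCAAT), the GC box (GGGCGG) and TCCCCGCC, a sequence described in the *Cirbp* promoter as responsive to mild cold, each searched on both strands. The *Ybx3* stretch is chr6:131388477-131388700 on the minus strand, that of *Ybx1* is chr4:119294605-119294763 on the minus strand, and that of *Cirbp* is chr10:80167589-80167777 on the plus strand.
Ybx3: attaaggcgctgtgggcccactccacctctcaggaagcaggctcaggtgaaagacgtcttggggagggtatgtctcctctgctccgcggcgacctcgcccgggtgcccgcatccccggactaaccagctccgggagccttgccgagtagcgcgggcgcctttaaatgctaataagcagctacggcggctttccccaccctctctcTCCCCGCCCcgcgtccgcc
Ybx1: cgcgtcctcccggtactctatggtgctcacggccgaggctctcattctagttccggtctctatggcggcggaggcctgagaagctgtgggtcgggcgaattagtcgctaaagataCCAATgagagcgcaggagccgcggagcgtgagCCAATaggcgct
Cirbp: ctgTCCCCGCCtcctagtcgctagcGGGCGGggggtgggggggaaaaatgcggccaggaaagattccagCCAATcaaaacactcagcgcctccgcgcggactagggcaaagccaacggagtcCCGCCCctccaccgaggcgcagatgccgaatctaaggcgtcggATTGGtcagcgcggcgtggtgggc

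In the full window of 250 bases before the start, *Ybx1* held 3 CCAAT boxes and *Ybx3* none, where 33.8% of all promoter windows of this length held at least 1. The letters TCCCCGCC lay in the windows of *Ybx3* and *Carhsp1* and in the *Cirbp* window shown in part above, and in 4.64% of all windows. A second *Cirbp* window, chr10:80167921-80168170, is not shown and held neither these letters nor a CCAAT box. The windows of the 4 genes were 62.8% to 73.2% GC, and the shares over all windows were not matched for GC content. In *Ybx3* they overlap a GC box, which 32.7% of all windows held. Neither a TATA box (TATAAA, in 12.4% of all windows) nor TTCNNNGAA, a core that STAT factors and BCL6 can bind (7.02%), was found in any window of the 4 genes. A match is a description of the letters and not of a bound site.

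*Ybx3*, on chromosome 6 of GRCm38 from 131364855 to 131388476 on the minus strand, codes for a Y-box protein known to stabilize mRNAs of amino acid transporters. It had 110, 103 and 131 CPM in the mice labelled BCL6-insufficient and 46.7, 41.0 and 34.2 CPM in those labelled wild-type. The lowest mouse labelled BCL6-insufficient, at 103 CPM, lay above the highest labelled wild-type, at 46.7 CPM. In bulk libraries, fewer cells of a type and less RNA per cell cannot be told apart. The group means were 115 ± 14.6 (SD, n = 3 mice) and 40.6 ± 6.24 (SD, n = 3) CPM, a log2 fold change of 1.5 (standard error 0.13, 95% interval 1.22 to 1.77), or 2.82-fold. Over single libraries *Ybx3* ran from 86.9 to 149 CPM (median 116) with the BCL6-insufficient label and from 30.7 to 49.4 CPM (median 40.8) with the wild-type label, so no library of one label reached the other. By p, *Ybx3* was the sixth of the 12719 genes tested, and this rank is the value that chose the family. The standard error, the interval and the lack of overlap take no account of this choice. The mice did not overlap in 34.4% of all genes tested.

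*Ybx1*, on chromosome 4 from 119277981 to 119294604 on the minus strand, codes for the most studied Y-box protein, which packages mRNA and reads 5-methylcytosine in it. It had 1340, 1370 and 1410 CPM with the BCL6-insufficient label and 1350, 1470 and 1490 CPM with the wild-type label. The groups overlapped, and the spread within them was small, with a coefficient of variation of 2.64% and 5.45%. The log2 fold change was -0.07 (95% interval -0.23 to 0.10, adjusted p = 0.636 by the quasi-likelihood test of edgeR). This interval runs from 0.851 to 1.07 times the wild-type level.

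The ratio of the paralogs within a mouse does not depend on the scaling of the libraries. *Ybx3* counts were 8.18%, 7.55% and 9.28% of *Ybx1* counts in the mice labelled BCL6-insufficient and 3.47%, 2.79% and 2.29% in those labelled wild-type. Over single libraries it lay between 6.60% and 10.6%, and between 2% and 3.54%, in the same order. The longest run of bases shared by the longest coding transcripts of *Ybx1* and *Ybx3* was 20 bases, gttgaaggagaaaagggtgc, in the coding part of both and spanning an exon junction in each (chr4:119282444-119282795 and chr6:131379476-131380890, introns included). No other gene of the annotation held a stretch of at least 200 bases with at least 90% identity to *Ybx3*. *Ybx1* had 5 such copies, of which the 3 analysed here held 212 counts together with the BCL6-insufficient label and 256 with the wild-type label, against 47765 and 51117 for *Ybx1* itself.

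**Figure D1:**
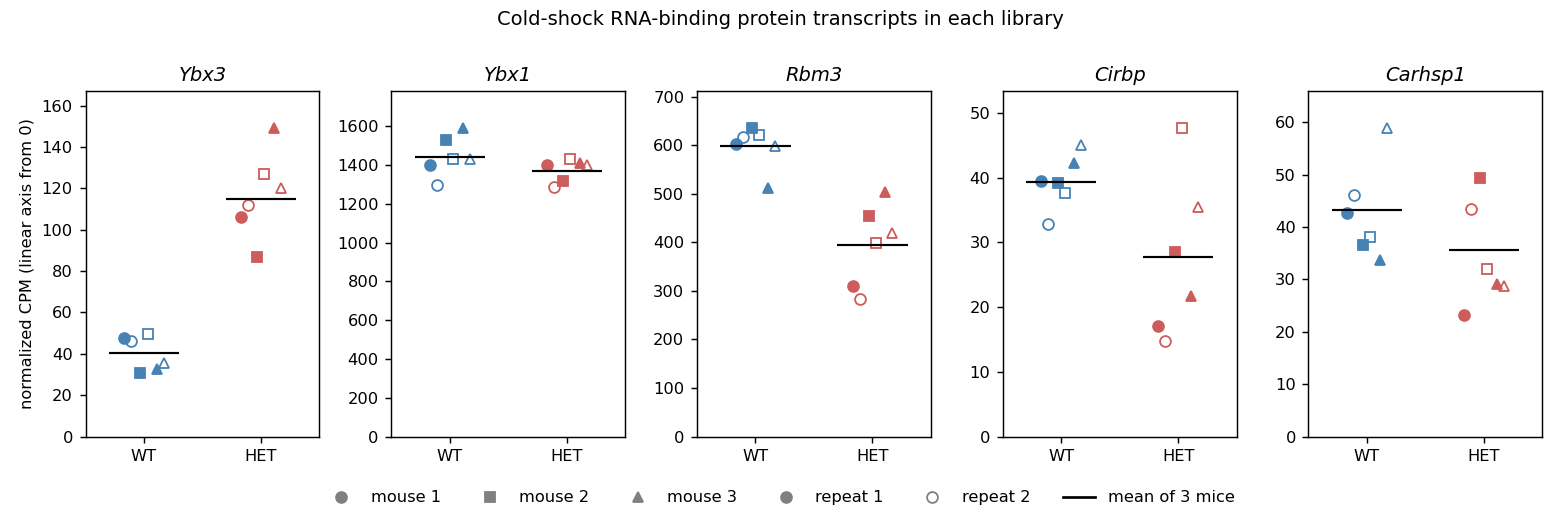
Normalized CPM (vertical axes, linear, each gene on its own scale from 0) of the 5 genes in each of the 12 libraries, by label (WT, wild-type; HET, BCL6-insufficient). Symbols mark the mouse, filled and open symbols technical repeats 1 and 2, and the line the mean of 3 mice. The *Ybx3* libraries do not overlap between the labels (at most 49.4 against at least 86.9), nor do those of *Rbm3* (at least 512 against at most 504), while those of *Ybx1*, *Cirbp* and *Carhsp1* do.

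*Carhsp1*, on chromosome 16 from 8658580 to 8672155 on the minus strand, codes for a small cold-shock domain protein that calcineurin, the calcium-dependent phosphatase, is known to dephosphorylate. It had 35.2, 42.6 and 29.1 CPM with the BCL6-insufficient label and 44.3, 37.2 and 48.1 CPM with the wild-type label. The groups overlapped, and the difference, a log2 fold change of -0.28 (95% interval -0.61 to 0.05, edgeR adjusted p = 0.251), did not exceed the spread between mice. Its technical repeats differed more than those of the other 4 genes, by up to 0.91 on the log2 scale within a mouse.

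Among the other cold-shock-domain genes listed, *Ybx2*, the Y-box gene of germ cells, reached at most 1 count in a library and *Csdc2* at most 6, so neither was tested, and *Lin28a* and *Lin28b* were not analysed here.

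*Rbm3*, on the X chromosome from 8138975 to 8145880 on the minus strand, fell with the BCL6-insufficient label. It had 296, 433 and 453 CPM in the mice labelled BCL6-insufficient and 609, 626 and 560 CPM in those labelled wild-type. The groups did not overlap, as was so for 34.4% of all genes tested, and mouse 1 of the BCL6-insufficient label was the lowest. The means were 394 ± 85.6 (SD, n = 3) and 598 ± 34.3 (SD, n = 3) CPM, a log2 fold change of -0.60 (standard error 0.12, 95% interval -0.85 to -0.36, edgeR adjusted p = 0.00103), or 0.658 times the wild-type level. Without BCL6-insufficient replicate 1 the log2 fold change was -0.44 (edgeR adjusted p = 0.00525). *Xist*, an X-linked transcript that silences an X chromosome, moved the other way, from 232 to 351 CPM with the wild-type label to 384 to 534 CPM with the BCL6-insufficient label. *Xist* was highest in the mouse in which *Rbm3* was lowest, and its part in the result was not tested. The listed X-linked genes *Fmr1* and *Rbmx* had log2 fold changes of 0.19 and 0.06 (edgeR adjusted p = 0.424 and 0.726).

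*Cirbp*, on chromosome 10 from 80165985 to 80172786 on the plus strand, had 15.8, 36.1 and 31.0 CPM with the BCL6-insufficient label and 36.0, 38.1 and 43.7 CPM with the wild-type label. Mouse 1 of the BCL6-insufficient label was again the lowest, and mouse 2, at 36.1 CPM, just passed the lowest mouse labelled wild-type. The log2 fold change was -0.51 (standard error 0.21, 95% interval -0.95 to -0.08, edgeR adjusted p = 0.0964), which did not pass the threshold of 0.05. It was -0.23 (edgeR adjusted p = 0.427) without BCL6-insufficient replicate 1 and -0.76 (adjusted p = 0.0301) without BCL6-insufficient replicate 2, so single mice set its size. It was -0.83 (edgeR adjusted p = 0.0215) with technical repeat 1 only and -0.25 (adjusted p = 0.605) with technical repeat 2 only.

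The cold-inducible genes were also set against each other. *Rbm3* counts were 1870%, 1200% and 1460% of *Cirbp* counts with the BCL6-insufficient label and 1690%, 1640% and 1280% with the wild-type label, ranges that overlapped. The ratio of *Ybx3* to *Rbm3* was 37.1%, 23.8% and 28.9% against 7.67%, 6.54% and 6.11%. Of the 4 genes picked for their family, 1 was called, *Rbm3*, in the lower direction, where 18.0% of all genes tested were called and 8.82% were lower. Stretches of at least 200 bases with at least 90% identity to *Rbm3* lay in 5 other genes. These held 592 and 690 counts together against 13420 and 21155 for *Rbm3*. Most of them, 493 and 591, were counts of *Phospho2*, a gene under its own name that aligned over 380 bases. An antisense gene, *Rbm3os*, shares 94 of the exon bases of *Rbm3*. Whether the counting used strand is not given in the sources used here.

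**Figure D2:**
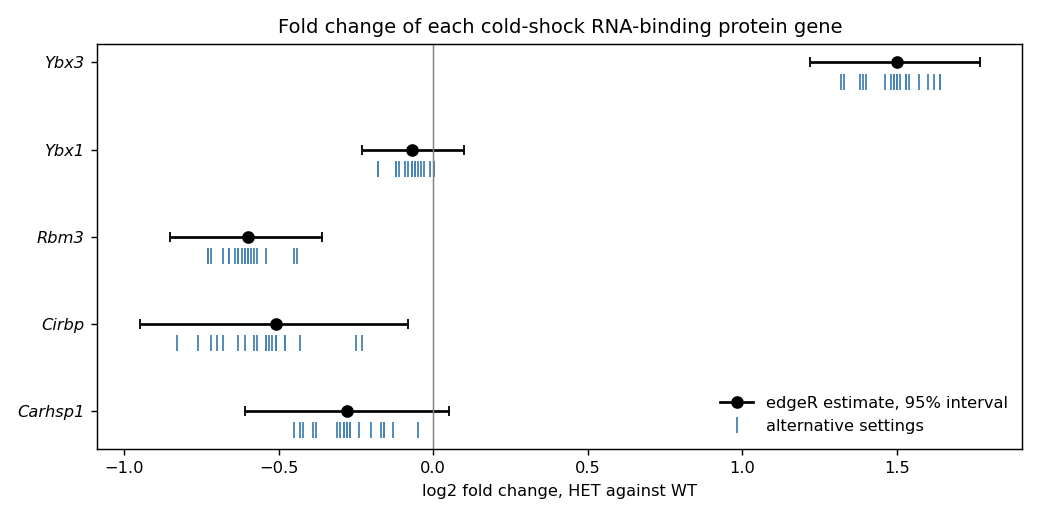
Log2 fold change of each gene, BCL6-insufficient label against wild-type label (horizontal axis). Points are edgeR estimates from 3 mice against 3 with 95% intervals, and ticks below them are the estimates under the 22 alternative settings. All ticks of *Ybx3* lie between 1.32 and 1.64 and all of *Rbm3* between -0.73 and -0.44, while those of *Ybx1* stay between -0.18 and 0.0027.

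Levels of different genes were compared per kilobase of summed exon length, as CPM per kilobase. In the mice labelled wild-type *Ybx1* was the highest with 567 ± 31.0 (SD, n = 3), followed by *Rbm3* with 127 ± 7.30 (SD, n = 3). *Carhsp1* with 15.1 ± 1.92, *Cirbp* with 15.1 ± 1.53 and *Ybx3* with 13.2 ± 2.03 CPM per kilobase (SD, n = 3 each) lay within their spread of one another. In the mice labelled BCL6-insufficient the order was *Ybx1* (542 ± 14.3), *Rbm3* (83.8 ± 18.2), *Ybx3* (37.3 ± 4.74), *Carhsp1* (12.5 ± 2.36) and *Cirbp* (10.6 ± 4.06 CPM per kilobase), and only the last pair lay within the spread. The *Ybx3* transcript moved from 2.35% to 6.86% of the *Ybx1* level per length. The order depends on the length used: over 6 mice *Ybx3* stood at 4.60% and *Cirbp* at 2.30% of *Ybx1* per exon length, but at 2.81% and 5.35% with the deposited TPM. The 5 genes together took 0.214%, 0.22% and 0.224% of all counts with the wild-type label and 0.176%, 0.197% and 0.198% with the BCL6-insufficient label.

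The technical repeats show how firmly each level was measured. Within a mouse, the median absolute log2 ratio of repeat 1 to repeat 2 was 0.11 for *Ybx1*, 0.16 for *Rbm3*, 0.21 for *Ybx3*, 0.23 for *Cirbp* and 0.37 for *Carhsp1*, against a median of 0.25 over 8152 well-counted genes. *Ybx1* and *Rbm3*, the most abundant, were thus the most even.

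The genes whose pattern over the 6 mice was nearest to that of a gene here were found by the root mean square (RMS) difference of log2 CPM, each gene centred on its own mean. Nearest to *Ybx3* were *Rps12-ps9* (RMS 0.162), *Ppp2cb* (0.163), *Gstm1* (0.164), *Gm11583* (0.168) and *Gm16033* (0.168). *Ppp2cb* codes for a catalytic subunit of protein phosphatase 2A and *Gstm1* for a glutathione transferase, which was low, at 0.286 CPM with the wild-type label and 1.28 CPM with the BCL6-insufficient label. *Rps12-ps9* is named as a pseudogene of a ribosomal protein, so its reads may come from related copies. No gene lay within an RMS of 0.15 of *Ybx3*, which was chosen for a large difference that few genes share, so this count is a description only. Within the same RMS lay 1822 genes of *Ybx1*, 229 of *Carhsp1*, 79 of *Rbm3* and 8 of *Cirbp*. Nearest to *Rbm3* were *Dhrs4* (0.087), *Aar2* (0.088) and *Trappc9* (0.089), and nearest to *Cirbp* were *Nkiras2* (0.119) and *Gm5507* (0.125). *Mat2a* (0.023), *Hmgn1* (0.025) and *Eif4b* (0.029) were nearest to *Ybx1*, and *Msrb2* (0.060), *Hgh1* (0.072) and *Hars2* (0.074) to *Carhsp1*.

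**Figure D3:**
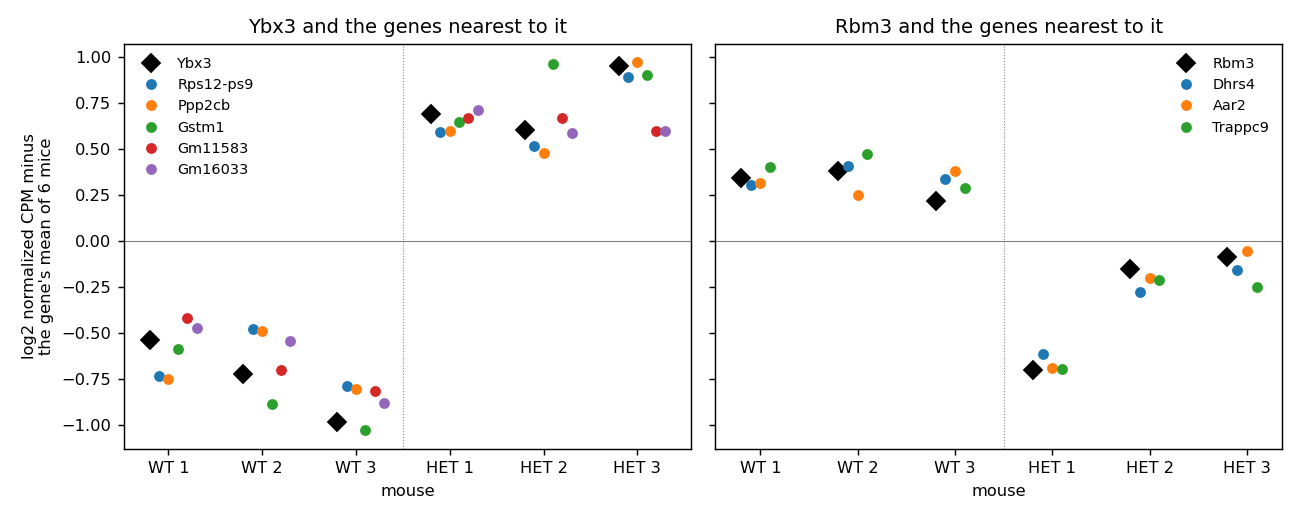
Log2 normalized CPM minus the gene's mean of 6 mice (vertical axis) for *Ybx3* and its 5 nearest genes (left) and for *Rbm3* and its 3 nearest (right), 1 position per mouse (WT, labelled wild-type; HET, labelled BCL6-insufficient). Black diamonds are *Ybx3* and *Rbm3*, and the lowest *Rbm3* value, -0.70, is that of BCL6-insufficient mouse 1.

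Transcripts of proteins that share messenger ribonucleoprotein particles (mRNPs) with Y-box proteins moved in both directions. Of 25 genes listed, 23 were tested, 5 rose and 7 fell with the BCL6-insufficient label (52.2% called, against 18.0% of all genes tested), and their median log2 fold change was 0.08, where all genes tested had 0.011. *Hnrnpd*, which codes for the mRNA decay factor AUF1, rose from 93.1 ± 14.1 to 189 ± 8.51 CPM (SD, n = 3 mice each), a log2 fold change of 1.02 (edgeR adjusted p = 2.21e-06). *Pabpc1*, which codes for the main cytoplasmic poly(A)-binding protein, had 770, 845 and 927 CPM with the BCL6-insufficient label and 503, 625 and 497 CPM with the wild-type label (log2 fold change 0.64, adjusted p = 0.000117). *Pcbp2*, a binder of poly(C), and *Larp1*, which binds mRNAs of the translation machinery, rose by log2 fold changes of 0.93 and 0.97 (adjusted p = 6e-06 and 0.000164), and *Pabpc4* also rose (0.63).

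The stress granule gene *Caprin1* fell, with 108, 87.3 and 112 CPM against 151, 154 and 194 CPM (log2 fold change -0.70, edgeR adjusted p = 0.000295). *Elavl1*, which codes for the mRNA-stabilizing protein HuR, and *Strap* fell as well, with log2 fold changes of -0.58 and -0.56 (adjusted p = 0.000426 and 0.00153). Further genes that fell, named after their values were seen, were *G3bp1* (-0.33) and *G3bp2* (-0.43), partners of CAPRIN1 in stress granules, and *Pcbp1* (-0.43). *Syncrip*, a component of Y-box mRNPs, had a log2 fold change of 0.08 (95% interval -0.18 to 0.34, adjusted p = 0.711). *Igf2bp2* reached at most 2 counts in a library and was not tested.

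Among 8 writers and readers of RNA 5-methylcytosine, the mark that YBX1 reads, *Nsun5* and *Nsun6* rose and *Nsun2* fell (37.5% called, against 18.0% of all genes tested). *Nsun2*, the main methyltransferase of mRNA, had 80.6 against 108 CPM (means of 3 mice, log2 fold change -0.43, edgeR adjusted p = 0.0201). *Nsun5* and *Nsun6* had log2 fold changes of 0.78 and 0.88 (adjusted p = 0.00132 and 0.0319). *Alyref*, an mRNA export factor that also reads the mark, had a log2 fold change of 0.32 (edgeR adjusted p = 0.103).

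Of 7 partners and targets of YBX3, 5 were tested and 1 rose, a share of 20% that is near the 18.0% called among all genes tested. *Slc7a5*, an amino acid transporter whose mRNA YBX3 is known to stabilize, had 17.8, 19.2 and 20.6 CPM with the BCL6-insufficient label and 11.8, 11.6 and 9.76 CPM with the wild-type label, with no overlap (log2 fold change 0.79, standard error 0.21, edgeR adjusted p = 0.00986). *Slc3a2*, which codes for the other subunit of the same transporter and is a known YBX3 target too, had 76.3 and 76.7 CPM (log2 fold change -0.01, 95% interval -0.24 to 0.23, adjusted p = 0.972). Of 5 genes listed around CARHSP1, all tested, 1 was called (20%, again near the background). It was *Ppp3cb*, a catalytic subunit of calcineurin, which rose (48.1 against 24.9 CPM, log2 fold change 0.95, edgeR adjusted p = 0.000324). *Tnf*, whose mRNA CARHSP1 stabilizes, had a log2 fold change of 0.27 (adjusted p = 0.431).

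Of 17 genes tied to temperature and the clock around CIRBP and RBM3, 15 were tested, 3 rose and 2 fell (33.3% called, against 18.0% of all genes tested). *Clk1*, a kinase of splicing factors that is more active at lower body temperature, had 221, 193 and 184 CPM with the BCL6-insufficient label and 138, 176 and 120 CPM with the wild-type label (log2 fold change 0.47, edgeR adjusted p = 0.00947). *Rtn3*, whose translation RBM3 is known to promote, fell from 177 ± 13.5 to 131 ± 6.72 CPM (SD, n = 3 mice each, log2 fold change -0.43, adjusted p = 0.00432). *Sp1*, a factor that binds GC boxes, rose (log2 fold change 0.87, adjusted p = 0.000174). The clock repressor *Per2* rose from a very low level, 0.535 to 3.00 CPM, with at most 35 counts in a library (adjusted p = 0.0107), and *Cry1* fell (log2 fold change -0.80, adjusted p = 0.0202).

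Over the 6 lists together, 12 of 57 tested genes rose and 11 fell, which is 40.4% called against 18.0% of all genes. Among genes of at least 20 CPM on average, it was 45.2% of 42 listed genes against 28.6% of 5986. Heat-shock genes, which respond to temperature in the opposite sense to CIRBP and RBM3, showed 1 of 10 tested genes higher and 2 lower (30% called), and their summed levels overlapped, at 4840 to 5660 CPM with the BCL6-insufficient label and 4920 to 5520 CPM with the wild-type label. Of 11 immediate early genes tested, 1 rose and 2 fell (27.3% called). Beside the lower *Rbm3*, 3 of 7 T cell markers were called lower (*Cd4*, *Cd5* and *Lck*, log2 fold changes of -0.34, -0.34 and -0.33). Of the 2 tested CD8 T and NK markers, *Nkg7* was called higher (1.54), while *Cd8b1* was lower and not called (-0.4). *Nkg7* was low, at 5.42 against 1.83 CPM, and its mice overlapped, while *Cd8b1* had 25.7 against 34.1 CPM. The summed levels of the CD8 T and NK list overlapped, at 27.4 to 35.4 CPM and 30 to 41.8 CPM in the same order. Of the 4 myeloid markers tested, 1 was called higher, *Lyz2*, highest in mouse 1 of the BCL6-insufficient label at 16.5 CPM, while *Csf1r*, with 9.09 against 5.33 CPM and no overlap, *Cd68* and *Fcgr3* had log2 fold changes of 0.77, -0.21 and -0.75 and were not called. The part of these markers in the result was not tested.

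**Figure D4:**
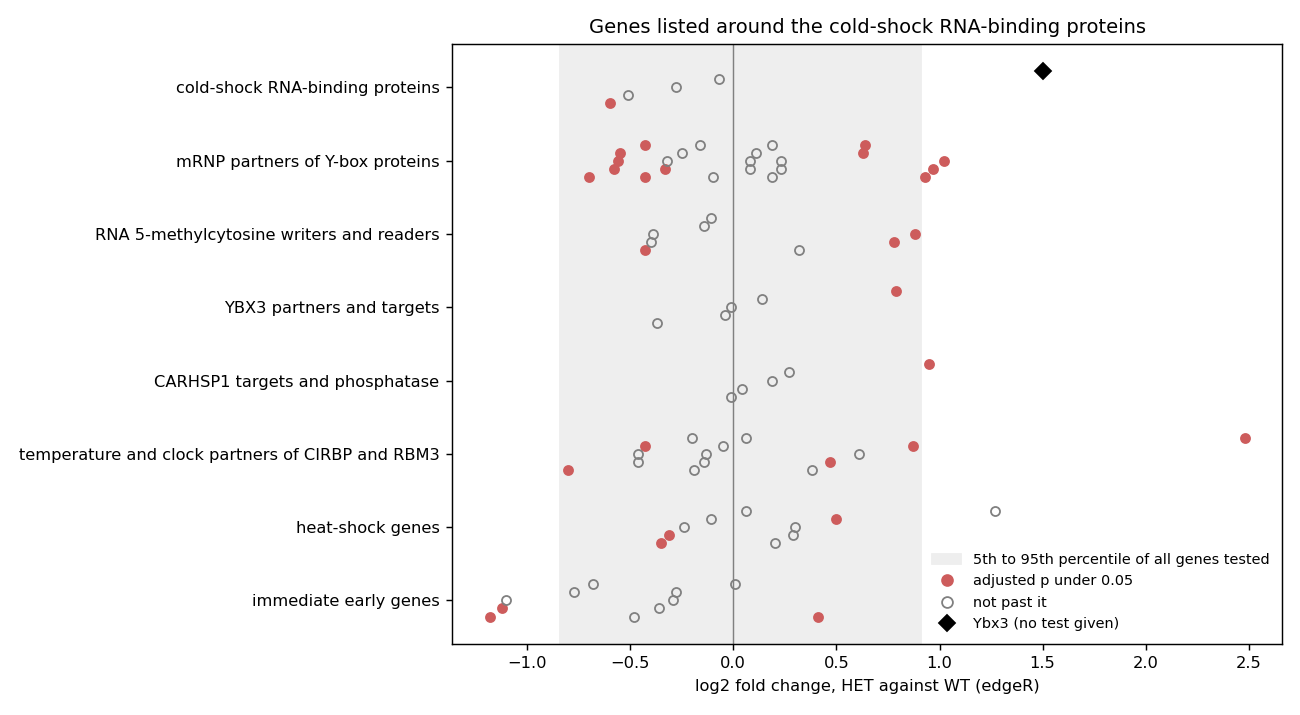
Log2 fold change, BCL6-insufficient label against wild-type label (horizontal axis), of every tested gene of the 8 lists shown, 1 row per list. Filled red points have an adjusted p under 0.05 from edgeR's test, open points do not, the diamond is *Ybx3*, and the grey band spans the 5th to 95th percentile of all genes tested (-0.84 to 0.91). *Ybx3*, chosen for its strong difference, lies at 1.5. Above the band among the called genes lie *Hnrnpd* (1.02), *Larp1* (0.97), *Ppp3cb* (0.95), *Pcbp2* (0.93) and *Per2* (2.48). Below it lie the immediate early genes *Jun* (-1.18) and *Egr2* (-1.12), while *Rbm3* at -0.60 lies inside.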

How the data were processed

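Per the labels and the methods of the study, the authors aligned reads to GRCm38 (mm10) with HISAT2 2.2.1 and counted them per gene with HTSeq. The authors deposited raw counts of 24561 genes in 12 libraries, and TPM values made from them. Across 8119 genes, the gene length implied by the deposited TPM had a Spearman correlation of 0.951 with the gene span and 0.600 with summed exon length. The annotation release and strandedness are not given in the sources used here.

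The counts of both technical repeats were summed per mouse, and 3 mice were compared with 3 by edgeR 4.0.16 in R 4.3.3 (TMM, filterByExpr, quasi-likelihood test, Benjamini-Hochberg adjustment over 12719 genes). Standard errors came from the fold change and the F statistic. Positions and exon lengths came from GENCODE M21 on GRCm38, in which 23822 symbols were found by name and 237 by another symbol. Copies were sought with BLAST over the annotated transcripts.

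The genes and lists were chosen with earlier results of these data known. Genes named were the 5 described, *Bcl6*, the 5 nearest to *Ybx3* and 3 nearest to each other gene, up to 4 called genes per direction and list by p, and 11 with a known tie. Some genes that this rule names are not reported here. Alternatives were DESeq2 1.42.0, limma 3.58.1 (voom, and log2 TPM), other scalings, filters and uses of the repeats, trends with GC content and length removed with mgcv 1.9.3, the replicate block, and leaving out each mouse. The range of library depth under each label is given above, and counting error understates the error between libraries, since reads carry no molecular identifiers.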

Additional observations from a re-analysis of the deposited data

Results flagged for a closer look

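The *Rbm3* level of 1 library labelled wild-type, mouse 3 repeat 1, lay far from the other 5 of its label, at 512 CPM where their median was 618 CPM. The *Bcl6* level of mouse 2 repeat 1, also labelled wild-type, stood apart in the same way, at 100 CPM where the median of the other 5 was 56.5 CPM, and it was still below every library labelled BCL6-insufficient. These were 2 of 12 groups of 6 libraries examined, the 5 genes and *Bcl6* under each label, and chance gives such a value in about 1 in 20 groups of independent samples, which these are not, since each mouse gave 2 of the 6 libraries.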

How the results depend on the processing

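The log2 fold changes of *Ybx3* (1.32 to 1.64) and *Carhsp1* (-0.45 to -0.05) kept their sign under all 22 alternatives, and *Carhsp1* was called in none. *Rbm3* stayed lower and called in all 22 (-0.73 to -0.44, adjusted p at most 0.0477). With 1 mouse left out, the ranges were 1.38 to 1.60 for *Ybx3*, -0.12 to -0.04 for *Ybx1*, -0.42 to -0.16 for *Carhsp1*, -0.76 to -0.23 for *Cirbp* and -0.72 to -0.44 for *Rbm3*. *Ybx1* turned to 0.0017 with GC and length trends removed and to 0.0027 with the replicate block added, and was called in no setting. *Cirbp* passed the threshold with technical repeat 1 only (-0.83), voom with a random term for mouse (-0.68), at least 1 count in any mouse (-0.53), the replicate block (-0.57, adjusted p = 0.0287 from edgeR's test) and the block with trends removed (-0.54), and without BCL6-insufficient replicate 2; its adjusted p ran from 0.0107 to 0.605. The replicate numbers showed no clear pairing of the mice: same-numbered mice had correlations of deviations of 0.09, -0.03 and 0.02, and not every mouse correlated best with its own number. With repeats of a mouse correlated at only 0.00569 in the fit with a random term, this check cannot settle whether the mice were paired. With the replicate block 2579 genes were called.

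Of the genes called, 1166 higher and 1122 lower, the count of 2288 became 1059 and 1446 with repeat 1 or 2 only, 1305 (390 higher and 915 lower) with log2(TPM + 1), 1260 (374 and 886) with log2(TPM + 0.1), where the all-gene median was -0.111 and not 0.011, and 1424 to 1972 with a mouse left out, lowest without wild-type replicate 3. Without the 3 libraries named in earlier results as standing apart, chosen after seeing the data, it was 873, and *Ybx3* was 1.33 and *Rbm3* -0.54. The 23 called genes of the 6 lists became 14, 12, 14, 13 and 13 under these settings in the same order, and 15 to 23 with a mouse left out. Per length, the level as a percentage of *Ybx1* over 6 mice moved with the deposited TPM. It went from 2.49% to 1.34% for *Carhsp1*, 2.30% to 5.35% for *Cirbp*, 19.0% to 65.4% for *Rbm3* and 4.60% to 2.81% for *Ybx3*. Whether the lengths behind those TPM account for each of these moves was not tested. With a mouse left out the levels per exon length were 2.40% to 2.62%, 2.19% to 2.53% and 17.9% to 20.4%, and 4% to 5.15% for *Ybx3*. Where not stated, the cause of a change was not tested.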
